A study of Mus musculus with 14 samples.

Results

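The genes described are 8 adhesive and matricellular glycoproteins of the extracellular matrix: Fn1 (fibronectin), Tnc and Tnxb (tenascins C and X), Thbs1, Thbs2 and Thbs3 (thrombospondins), Postn (periostin) and Sparc. They were chosen by name, with earlier results of these data known, as 8 of the 48795 genes in the count table. Counts of them set beside the share of all genes are therefore a description. The RNA came from outgrowth cultures: pieces of lung or of back skin were laid in dishes, and the unstimulated fibroblasts around them on plastic were scraped off on day 14. The mice were labelled C57BL/6J males of 8 to 10 weeks, either wild type or Rel-/-, which lack the NF-kappaB subunit c-Rel. There were 5 wild-type lung libraries (numbered 1, 23, 3, 4 and 5), 4 Rel-null lung libraries (7 to 10), 2 wild-type skin libraries (11 and 22) and 3 Rel-null skin libraries (18 to 20). Skin pieces were removed from the dish on day 7, and no such step is given for lung.

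Fibronectin is laid down by fibroblasts as fibrils that cells grip through integrins and on which other matrix proteins assemble. Matricellular proteins, among them tenascin C, the thrombospondins, periostin and Sparc, bind both matrix and cell-surface receptors and mostly tune adhesion and growth factor activity instead of bearing load. Several of them, tenascin C and periostin in particular, are known from healing wounds and fibrotic tissue, and tenascin X from the connective tissue of the dermis.

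Depth was 12780350 to 30987933 counts per library in all but wild-type skin 22, which had 2663437. All 8 genes were read in every library, with a lowest count of 77, passed the filter on low counts and together took 1.13% to 4.08% of a library's counts. In 4 libraries many expressed genes had no counts: 11.5% of those averaging at least 5 CPM (a count relative to library size) in the other libraries of the tissue for lung library 7 (Rel-null), 8.22% for skin library 11 (wild type), 5.78% for lung library 4 (wild type) and 3.37% for skin library 18 (Rel-null). Elsewhere the share was 0.728% or less. Wild-type lung 1 and wild-type skin 22 read Xist at 77.6 and 624 CPM, against at most 0.611 CPM in the others, which goes against the label male. Rel itself was at 8.72 and 9.08 CPM in Rel-null skin 20 and 19, beside 9.28 and 11.4 CPM in wild-type skin, and at 0.0334 CPM in Rel-null skin 18; its lung range was 1.05 to 16.8 CPM for wild type and 0.0607 to 4.34 CPM for Rel-null. Wild-type lung 4 had the 1.05 CPM, below Rel-null lung 8, 9 and 10 at 4.34, 1.44 and 4.03 CPM. Genotypes are those labelled. Libraries 19 and 20 are labelled Rel-null although their Rel level is near that of wild type, and lung 4 is labelled wild type although its level is low. Skin 18, lung 7 and lung 4, which had the lowest Rel levels, are among the 4 libraries with many expressed genes at 0. A count per gene also does not show whether a transcript is intact, so the Rel level does not settle the genotype. Rel-null lung 10 has a treatment label that says skin, while its title and source say lung. Every fibroblast marker on a list of 12, Col1a1 and Pdgfra among them, averaged at least 1 CPM in all 4 groups. All 17 leukocyte and macrophage markers did so in both lung groups, so this level alone does not mark a cell type. Markers of leukocytes and macrophages (17 genes) summed to 7123 to 28716 CPM in the lung libraries and to 46.4 to 199 CPM in skin, with Marco and Chil3 at 0 in Rel-null skin. In such bulk cultures fewer cells of a type and less RNA per cell cannot be told apart.

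Promoter windows from RefSeq (GRCm38.p6) were found for 6 of the 8 genes, with 2 windows each for Tnc and Postn. Shown is 1 window for each of the 4 genes that passed the threshold between skin and lung cultures, for Tnc and Postn the one nearest to the annotated gene start, each from 250 bases before the start site to 50 after it, 5′ to 3′, with motif matches on either strand in capitals.
Tnc, chr4:64046966-64047265, minus strand: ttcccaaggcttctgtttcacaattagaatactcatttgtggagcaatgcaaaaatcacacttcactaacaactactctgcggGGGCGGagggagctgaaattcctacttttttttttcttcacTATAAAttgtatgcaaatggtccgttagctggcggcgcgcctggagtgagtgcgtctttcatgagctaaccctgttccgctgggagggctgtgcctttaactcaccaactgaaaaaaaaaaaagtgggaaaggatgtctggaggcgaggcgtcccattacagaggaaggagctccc
Tnxb, chr17:34670285-34670584, plus strand: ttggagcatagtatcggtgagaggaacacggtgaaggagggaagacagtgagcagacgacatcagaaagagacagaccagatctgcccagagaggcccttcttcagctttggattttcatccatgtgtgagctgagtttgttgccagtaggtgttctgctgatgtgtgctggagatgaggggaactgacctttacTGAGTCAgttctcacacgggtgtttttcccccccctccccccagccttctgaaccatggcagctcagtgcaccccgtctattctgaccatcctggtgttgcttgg
Thbs2, chr17:14694213-14694512, minus strand: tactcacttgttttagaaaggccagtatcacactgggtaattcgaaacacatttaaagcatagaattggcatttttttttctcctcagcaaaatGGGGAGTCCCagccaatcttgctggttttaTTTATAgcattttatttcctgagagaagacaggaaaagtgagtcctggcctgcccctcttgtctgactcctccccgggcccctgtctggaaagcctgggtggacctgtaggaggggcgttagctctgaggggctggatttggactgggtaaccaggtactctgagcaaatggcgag
Postn, chr3:54360857-54361156, plus strand: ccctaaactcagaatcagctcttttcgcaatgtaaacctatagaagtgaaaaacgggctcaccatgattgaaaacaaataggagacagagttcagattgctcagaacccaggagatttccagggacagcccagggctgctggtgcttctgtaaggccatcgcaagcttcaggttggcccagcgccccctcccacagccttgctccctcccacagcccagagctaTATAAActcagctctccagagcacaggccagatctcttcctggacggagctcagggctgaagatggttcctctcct
The window of Tnc held a TATAAA match that begins at base -126 from the start site and a GGGCGG match at -167. That of Postn held TATAAA at -26. The other window of Tnc, chr4:64046887-64047186, overlaps the one shown and held the same motifs at -205 and -246 from its own start site, and the other window of Postn, chr3:54359017-54359316, held none of the motifs searched. In Thbs2 a kappaB motif, read on both strands, began at -156 and a TATAAA match on the opposite strand at -126. In Tnxb the palindromic TGANTCA began at -55. Over 32851 windows of this length, TATAAA was present in 13.6%, GGGCGG in 35.7%, TGANTCA in 7.81%, the kappaB motif in 8.46%, GGAATG in 14.7% and the CArG box in 1.63%. No GGAATG or CArG match lay in the 4 windows shown, and no matches of different motifs overlapped. The matches describe letters and not sites in use.

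Levels are in CPM on TMM-scaled library totals, and levels of different genes are compared per kilobase of exon. In wild-type lung cultures Sparc, a collagen-binding protein made with fibrillar collagen, led with 2487 ± 1165 CPM per kb (mean ± SD, n = 5). Fn1 followed with 1005 ± 288 and Thbs1 with 618 ± 488 CPM per kb, and the spreads of Fn1 and Thbs1 overlap. Tnc stood at 206 ± 47.2 and Thbs2 at 85.7 ± 47.1 CPM per kb. Postn, Thbs3 and Tnxb were far lower, at 11.1 ± 2.83, 10.6 ± 7.85 and 9.78 ± 5.86 CPM per kb, and are not separated from each other by their spread. In Rel-null lung (n = 4) Sparc again led, with 2131 ± 310 CPM per kb, ahead of Fn1 at 394 ± 326 and Thbs1 at 311 ± 300, and Thbs2 at 91.8 ± 43.8 stood beside Tnc at 65.2 ± 44.3. In wild-type skin (n = 2) the order was Sparc, Thbs1, Tnc, Fn1, Thbs2, Postn, Thbs3 and Tnxb, at 1554 ± 136, 1131 ± 113, 686 ± 316, 499 ± 370, 429 ± 58.3, 375 ± 459, 6.48 ± 2.39 and 1.30 ± 1.02 CPM per kb. Among these, Tnc, Fn1, Thbs2 and Postn lay within each other's spread. In Rel-null skin (n = 3) Thbs1, at 1379 ± 403 CPM per kb, stood beside Sparc at 1180 ± 418, and Tnc, at 908 ± 77.8, beside Thbs2 at 831 ± 226. Fn1, the second gene in both lung groups, came after these 4 there, with 138 ± 40.5 CPM per kb. With the longest transcript as the length, no gene changed its place in either lung group. In Rel-null skin 4 did, with Sparc before Thbs1 and Postn, at 197 CPM per kb, before Fn1 at 194, and in wild-type skin Postn, at 624, passed Thbs2 at 510.

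**Figure D1:**
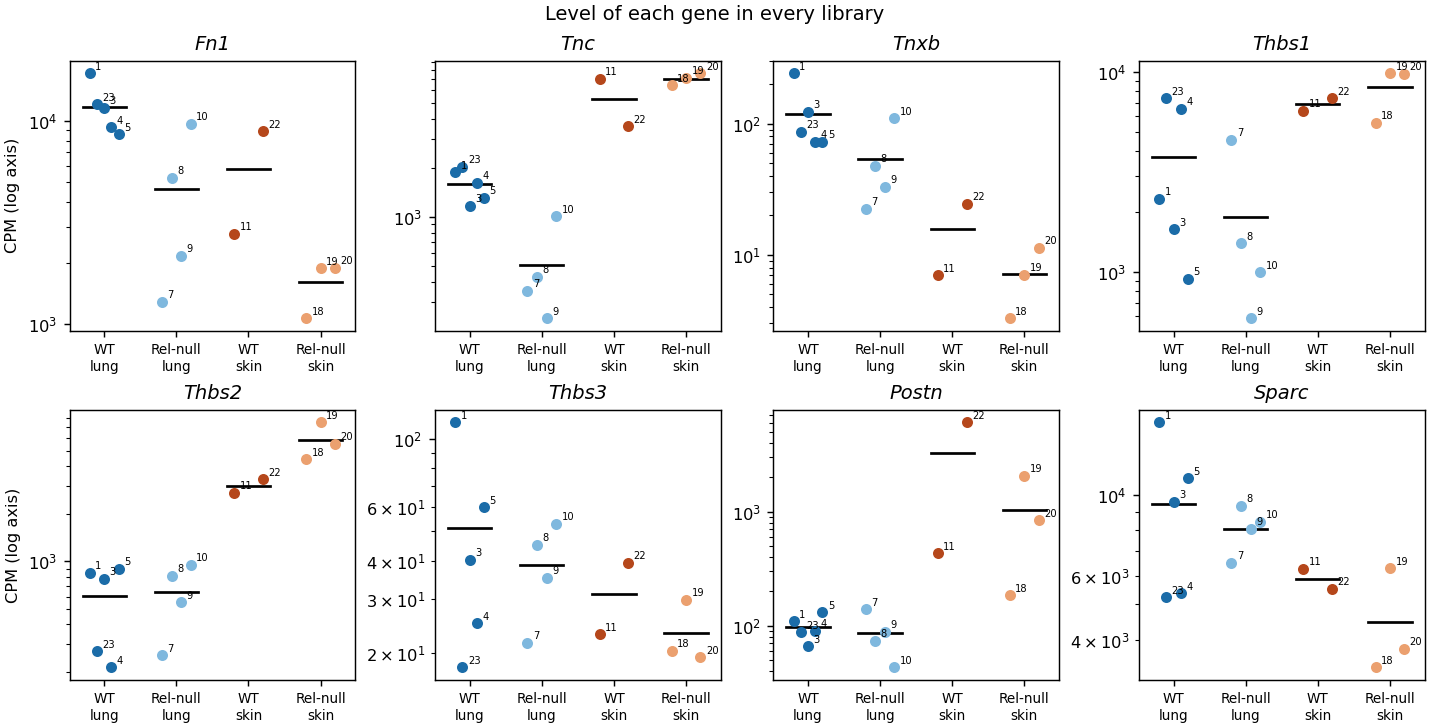
Level of each of the 8 genes in every library, in CPM on a log axis, by group. Points are libraries with their number and bars are group means; Tnc, Thbs2 and Postn lie higher in every skin library than in any lung library, and Tnxb lies lower in skin within each genotype.

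The first question the design allows is how skin and lung cultures of one genotype differ. In wild type, Postn and Thbs2 were called, both higher in skin, which is 2 of the 8 genes where 2.97% of the 16408 genes tested were called, 0.902% higher and 2.07% lower. In Rel-null cultures Tnc, Thbs2 and Postn were called higher and Tnxb lower, 4 of 8 where 5.05% of all genes were called, 1.82% higher and 3.23% lower. A call is an adjusted p under 0.05 by edgeR's quasi-likelihood test with Benjamini-Hochberg adjustment over all genes tested. The median log2 fold change of the 8 genes was 0.10 in wild type and 0.71 in Rel-null, against -0.13 and -0.01 over all genes tested. Beside these counts stand the leukocyte sums given above and, for Rel-null skin, keratinocyte markers (12 genes) that summed to 1053 to 2718 CPM, with Krt14 at a mean of 709 CPM and Krt1 at 0. The same 12 genes summed to 20.5 to 45.5 CPM in the wild-type skin pair and at most 41.9 CPM in lung. Krt8 and Krt18, keratins of simple epithelia, were also called higher in Rel-null skin, where the lung epithelium list (12 genes) summed to 383 to 643 CPM with Sftpc and Nkx2-1 at 0, against 8.32 to 199 CPM in the other groups. Skeletal muscle markers (8 genes) moved with tissue as well, 5 being called higher in skin in wild type and 4 in Rel-null, none lower. Myod1, the myogenic factor, was at 0 in all 9 lung libraries and averaged 10.4 CPM in wild-type skin and 21.6 CPM in Rel-null skin. The 8 genes summed to 75.1 and 758 CPM in wild-type skin 11 and 22, and to 427 to 803 CPM in Rel-null skin. In lung they summed to 13.6 to 134 CPM for wild type and 27.8 to 844 CPM for Rel-null, where library 7 stood highest. The sum of library 7 was Des at 534 CPM and Acta1 at 310 CPM, and the rest of the list reached at most 1.14 CPM in Rel-null lung. Des is also among the myofibroblast and smooth muscle markers used below. The part of these cell types in the results was not tested.

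Postn, a matricellular protein of collagen-rich tissue under load (GRCm38 chromosome 3, 54361109-54391037), had the largest fold of the 8 genes in wild type. Lung libraries 1, 23, 3, 4 and 5 (wild type) read 109, 87.5, 65.8, 90.4 and 131 CPM, and Rel-null lung 7 to 10 read 139, 73.4, 88.7 and 42.9 CPM. Wild-type skin 11 and 22 read 433 and 6085 CPM, and Rel-null skin 18, 19 and 20 read 184, 2059 and 838 CPM. Every skin library lay above every lung library, but skin libraries of a group differed among themselves by 14.1 times in wild type and 11.2 times in Rel-null. The log2 fold change of skin over lung was 5.07 ± 0.77 SE in wild type (33.7-fold, adjusted p = 0.00160 by edgeR) and 3.58 ± 0.76 in Rel-null (11.9-fold, adjusted p = 0.0109). The size rests on single libraries. Without wild-type skin 22 the first was 2.16 (adjusted p = 0.0869), and without Rel-null skin 19 the second was 2.57 (adjusted p = 0.0779). Without Rel-null skin 19 and 20 the second was 1.09 (adjusted p = 0.602), and without both Xist-positive libraries the first was 2.19 (adjusted p = 0.119).

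Tnc, the tenascin of wounds and of tissue under remodelling (chromosome 4, 63959785-64047015), separated the tissues in both genotypes. Wild-type lung read 1876, 2034, 1166, 1613 and 1309 CPM in libraries 1, 23, 3, 4 and 5, and Rel-null lung 7 to 10 read 352, 427, 238 and 1010 CPM. Wild-type skin 11 and 22 read 7072 and 3595 CPM, and Rel-null skin 18 to 20 read 6412, 7139 and 7613 CPM. The Rel-null skin libraries lay close together, within 1.19 times, and the lowest skin library was above the highest lung library. In Rel-null cultures Tnc was 13.9-fold higher in skin, a log2 fold change of 3.80 ± 0.47 SE (adjusted p = 1.73e-04 by edgeR), and it was called under all 24 alternatives, with values from 3.58 to 4.38. In wild type the value was 1.74 ± 0.46 (adjusted p = 0.0511), which misses the threshold, and 10 of 24 alternatives called it, among them the fit without wild-type skin 22 at 2.14 (adjusted p = 0.0213).

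Tnxb, a large tenascin that binds collagen fibrils (chromosome 17, 34670535-34719815), went the other way. Its CPM were 242, 86.5, 123, 72.4 and 72.8 in wild-type lung 1, 23, 3, 4 and 5, and 22.5, 48.0, 33.2 and 110 CPM in Rel-null lung 7 to 10. Skin libraries 11 and 22 (wild type) read 6.99 and 24.6 CPM, and in Rel-null skin 18 to 20 it read 3.28, 7.06 and 11.3 CPM. Within each genotype no skin library reached the lowest lung library; across genotypes, wild-type skin 22 read slightly above Rel-null lung 7. Tnxb was 7.44-fold lower in Rel-null skin than in Rel-null lung, a log2 fold change of -2.89 ± 0.67 SE (adjusted p = 0.0183 by edgeR). The wild-type value was -2.95 ± 0.79 (adjusted p = 0.0591). The Rel-null call ended without Rel-null lung 10 (-2.27, adjusted p = 0.0516), without Rel-null skin 18 (-2.49, adjusted p = 0.0921) or 19 (-2.88, adjusted p = 0.0806), and without 19 and 20 together (-4.02, adjusted p = 0.0957). In wild type it was called by 7 of 24 alternatives, one of which left out wild-type skin 22 (-4.09, adjusted p = 0.0374).

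Thbs2, a thrombospondin known for its part in collagen fibril assembly and in restraining vessel growth (chromosome 17, 14665500-14694235), was called in both genotypes. Wild-type lung 1, 23, 3, 4 and 5 read 847, 271, 775, 214 and 895 CPM, and Rel-null lung 7 to 10 read 255, 813, 552 and 950 CPM. Wild-type skin 11 and 22 read 2715 and 3293 CPM, and Rel-null skin 18 to 20 read 4405, 7532 and 5515 CPM. Again the lowest skin library lay above the highest lung library. Skin exceeded lung by a log2 fold change of 2.32 ± 0.53 SE in wild type (5.00-fold, adjusted p = 0.0250 by edgeR) and 3.18 ± 0.54 in Rel-null (9.05-fold, adjusted p = 0.00198). The Rel-null call held under all 24 alternatives, from 2.78 to 3.43. The wild-type call was lost in 5, among them the fits without wild-type skin 11 (2.44, adjusted p = 0.0732) and without 22 (2.18, adjusted p = 0.0617).

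Thbs1, the thrombospondin that can release TGF-beta from its latent form (chromosome 2, 118111876-118127133), was high in all skin libraries and uneven in lung. Wild-type lung 1, 23, 3, 4 and 5 read 2325, 7352, 1635, 6518 and 927 CPM, and Rel-null lung 7 to 10 read 4574, 1388, 586 and 997 CPM. Wild-type skin 11 and 22 read 6382 and 7351 CPM, and Rel-null skin 18 to 20 read 5553, 9806 and 9772 CPM. Lung libraries 23 and 4 lay within the range of skin, 7 just below it and the other 6 well below, and this division crosses the genotypes. The log2 fold change of skin over lung was 2.15 ± 0.72 SE in Rel-null (adjusted p = 0.108 by edgeR), with groups that did not overlap, and 0.87 ± 0.76 in wild type (adjusted p = 0.723). Without Rel-null lung 7, which had the most genes at 0, the Rel-null value was 3.12 (adjusted p = 0.0124), and without the 4 libraries with the most genes at 0 it was 3.36 (adjusted p = 0.00683). Of 24 alternatives 5 called it, the others being DESeq2 at 2.11 (adjusted p = 0.0273), limma-voom at 3.17 (adjusted p = 9.09e-05) and edgeR with no low-count filter at 2.17 (adjusted p = 0.0135). Rel-null lung 7 also had myofibroblast and smooth muscle markers (8 genes) summing to 13245 CPM, against 1129 to 4563 CPM elsewhere, whose part was not tested.

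Fn1, Thbs3 and Sparc passed the threshold in neither genotype by edgeR. Their log2 fold changes of skin over lung were -1.01 ± 0.69, -0.72 ± 0.61 and -0.68 ± 0.49 SE in wild type, and -1.51 ± 0.62, -0.74 ± 0.54 and -0.85 ± 0.44 in Rel-null. Of the 24 alternatives, limma-voom alone called any of the 3, in Rel-null, with Fn1 at -1.43 (adjusted p = 0.00419) and Sparc at -0.82 (adjusted p = 0.0239). Fn1 depended on single libraries: its Rel-null value was -0.85 without Rel-null lung 10, and its wild-type value was -0.42 without skin 11 and -2.08 without skin 22. Without wild-type lung 1 the wild-type values of Thbs3 and Sparc were -0.18 and -0.39, and that of Thbs3 was -0.39 without skin 11 and -1.15 without skin 22. Sparc (chromosome 11, 55394500-55423183) ran in lung from 5229 to 15823 CPM (wild type) and 6504 to 9318 CPM (Rel-null), and in skin from 5522 to 6253 and 3352 to 6280 CPM, and the Rel-null groups did not overlap. Thbs3, a pentameric thrombospondin (chromosome 3, 89215180-89226837), ran from 18.0 to 113 CPM over all 14 libraries, with overlapping groups. It shares 318 exon bases, 6.59% of its own, with Mtx1 on the opposite strand, so its level is uncertain while the strand setting of the counting is not known. Groups did not overlap for 4 of the 8 genes in wild type, 3 higher and 1 lower in skin, where 17.8% of all genes did not overlap, 7.12% higher and 10.7% lower. In Rel-null they did not overlap for 6 of 8, 4 higher and 2 lower, where the share was 20.1%, 11.6% higher and 8.54% lower.

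**Figure D2:**
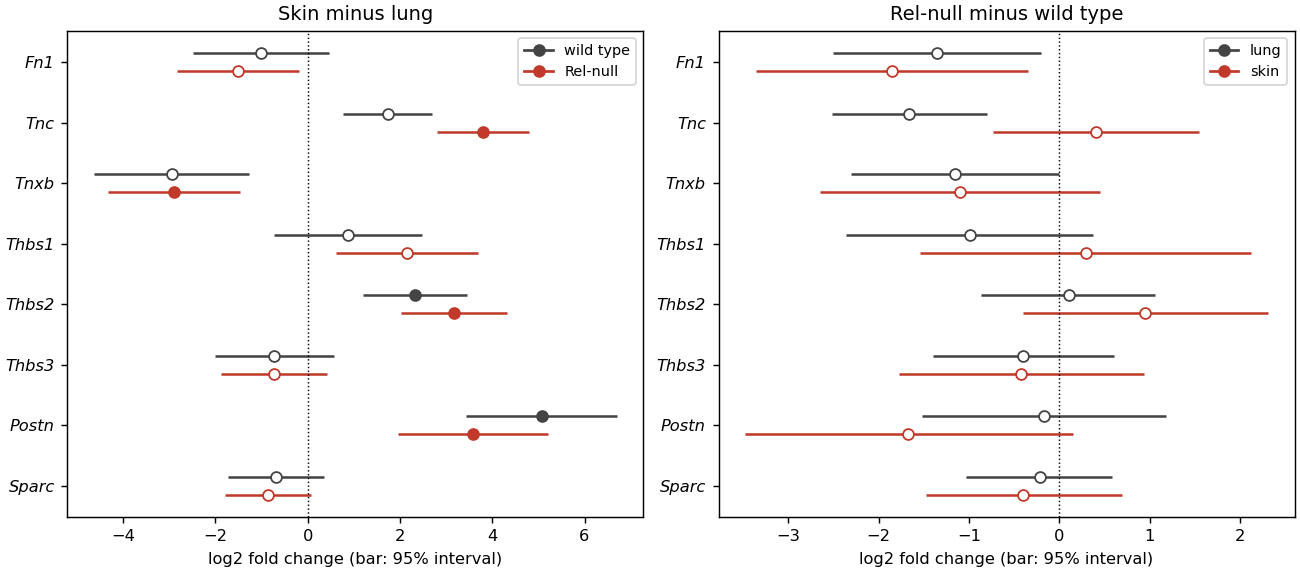
Log2 fold changes from edgeR with 95% intervals derived from its test statistic, skin minus lung at left and Rel-null minus wild type at right. Points with an adjusted p under 0.05 by edgeR are filled. Filled points are Postn and Thbs2 in wild type and Tnc, Tnxb, Thbs2 and Postn in Rel-null at left, and there is none at right.

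The second question is how Rel-null cultures differ from wild-type cultures of the same tissue. These comparisons use the libraries already compared between tissues, so the values are not independent of those above. Rel itself was called in neither tissue. Its log2 fold change was -2.09 ± 1.28 SE in lung (adjusted p = 0.863 by edgeR) and -0.80 ± 1.62 in skin (adjusted p = 0.987). This limits every genotype comparison that follows. In lung, none of the 8 genes was called, and 0% of all genes tested were, with 1036 genes at an unadjusted p under 0.05 (6.31%), 51 called by DESeq2 and 6 by limma-voom. The estimates of 7 of the 8 genes were lower in Rel-null lung, where 43.9% of all genes tested were higher. The median log2 fold change of the 8 was -0.70 against -0.08 over all genes. The estimates of Thbs2, Thbs3, Postn and Sparc changed sign in fits that left out a single library. Tnc had the smallest p of the 8, with a log2 fold change of -1.66 ± 0.41 SE, or 3.16-fold lower in Rel-null (unadjusted p = 8.87e-04, adjusted p = 0.781 by edgeR). Its highest Rel-null library, number 10 at 1010 CPM, lay below its lowest wild-type library, number 3 at 1166 CPM. Tnc was the 1 gene of the 8 whose lung groups did not overlap, where 2.24% of all genes did not and 1.43% were lower in Rel-null. DESeq2 called it at -1.65 (adjusted p = 0.00605), while the other 23 alternatives did not, with values from -2.24 to -1.41 over all 24.

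Fn1 (chromosome 1, 71585520-71653200) read high in all wild-type lung libraries, at 17148, 12072, 11593, 9294 and 8605 CPM in libraries 1, 23, 3, 4 and 5. Rel-null lung 7 to 10 read 1284, 5267, 2163 and 9712 CPM. Numbers 7, 8 and 9 lay below every wild-type library, and number 10 lay within their range. The log2 fold change was -1.35 ± 0.54 SE (adjusted p = 0.781 by edgeR), and over the 24 alternatives it ran from -2.02, without Rel-null lung 10, to -1.04, with none calling it. Tnxb gave -1.16 ± 0.54 (adjusted p = 0.781) and Thbs1 -0.99 ± 0.64 (adjusted p = 0.882), both with overlapping groups. Both sizes rest on single libraries. Tnxb gave -1.79 without Rel-null lung 10 and -0.72 without wild-type lung 1. Thbs1 gave -1.93 without Rel-null lung 7, and -0.57, -0.63 and -0.64 without wild-type lung 23, wild-type lung 4 and Rel-null lung 9. None of the 24 alternatives called either gene. Thbs2, Thbs3, Postn and Sparc lay between -0.40 and 0.10, and their 95% intervals reached from -1.52 at the lowest to 1.18 at the highest; each interval included 0. Leukocyte sums overlapped between the lung genotypes, at 7123 to 23280 CPM in wild type and 8208 to 28716 CPM in Rel-null.

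In skin, again none of the 8 genes was called and 0% of all genes tested were, with 1024 at an unadjusted p under 0.05 (6.24%), 145 called by DESeq2 and 300 by limma-voom. Fn1 read 2775 and 8888 CPM in wild-type skin 11 and 22, and 1067, 1879 and 1894 CPM in Rel-null skin 18, 19 and 20. All Rel-null libraries lay below both wild-type ones, and the log2 fold change was -1.85 ± 0.71 SE (adjusted p = 0.718 by edgeR). It was -0.79 without wild-type skin 22, and without both Xist-positive libraries it was -0.75, the nearest to 0 of the 24 alternatives. Thbs2 lay higher in every Rel-null skin library, with 0.95 ± 0.64 (adjusted p = 0.824). Groups did not overlap for these 2 of the 8 genes, where 25.1% of all genes did not, 14.8% being higher and 10.3% lower in Rel-null. Postn gave -1.67 ± 0.85 (adjusted p = 0.784), and its direction turned without wild-type skin 22, to 1.24. The keratinocyte sums given above differ between these groups without overlap. Adipocyte marker sums (7 genes) did not overlap either, at 2422 and 403 CPM in wild-type skin 11 and 22 and 94.9 to 328 CPM in Rel-null skin. In wild-type skin 22 that sum was mostly Lpl, at 384 CPM. Fabp4 there, at 8.96 CPM, lay below the 22.4 to 57.7 CPM of Rel-null skin. The same list summed to 340 to 1273 CPM in wild-type lung, with Adipoq and Plin1 at 0. Schwann cell and melanocyte markers (8 genes) summed to 228 CPM in wild-type skin 22 and 14.4 to 38.3 CPM in the other skin libraries. The part of these cell types was not tested. Rel-null skin 19 and 20 read Rel near the wild-type level.

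The difference between the genotype effects of skin and lung was called for none of the 8 genes, nor for any gene tested (0%). At an unadjusted p under 0.05 stood 766 genes (4.67%), while DESeq2 called 99 genes and limma-voom 174. Tnc had the smallest p of the 8: its Rel-null effect was 0.40 ± 0.53 SE in skin and -1.66 ± 0.41 in lung, a difference of 2.06 ± 0.68 on the log2 scale (unadjusted p = 0.00795, adjusted p = 1.00 by edgeR). For the other 7 genes the difference lay between -1.50 for Postn and 1.28 for Thbs1, each with an adjusted p of 1.00.

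Ratios of 2 genes within a library, per length, do not depend on the scaling between libraries, and are given as a description. Tnc per Fn1 was 0.122 to 0.412 over the 9 lung libraries, 3.83 and 0.608 in wild-type skin 11 and 22, and 9.04, 5.71 and 6.04 in Rel-null skin 18, 19 and 20. Tenascin C thus read above fibronectin in 4 of the 5 skin libraries and below it in every lung library. Tnc per Tnxb was 11.3 to 37.0 in lung and 229 to 3074 in skin, with no overlap. Postn per Sparc was 0.00222 to 0.00932 in lung and 0.0238 to 0.480 in skin, also with no overlap. Thbs1 per Fn1 was 10.0, 10.0 and 9.93 in Rel-null skin, 4.42 and 1.59 in wild-type skin, 6.85 in Rel-null lung 7 and 0.198 to 1.35 in the other lung libraries. Between the thrombospondins, Thbs2 per Thbs1 was 0.0319, 0.0285 and 0.0484 in lung libraries 23, 4 and 7, 0.316 to 0.837 in the other 6 and 0.369 to 0.688 in skin.

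**Figure D3:**
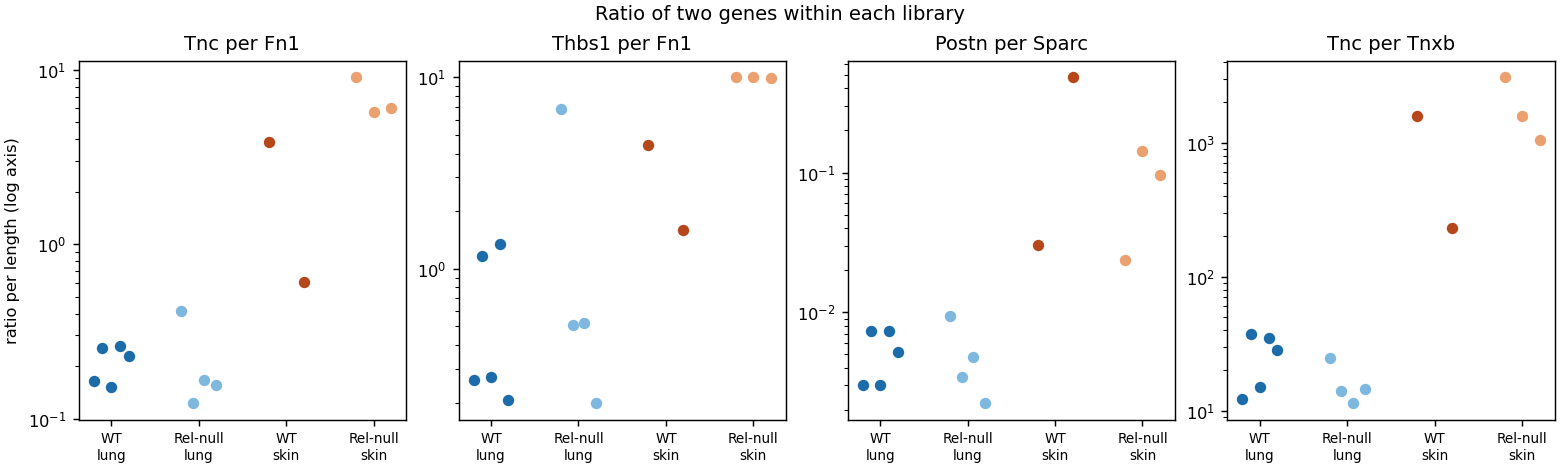
Ratio of the levels per kilobase of 2 genes within each library, on a log axis, by group; each point is a library. Tnc per Tnxb and Postn per Sparc separate every skin library from every lung library, and Thbs1 per Fn1 is close to 10.0 in all 3 Rel-null skin libraries.

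How the log2 CPM of the genes moved together over the 9 lung libraries is described here by Pearson's r with no test, among 28 pairs. Fn1, Tnc and Tnxb varied together, with r of 0.90 for Fn1 and Tnc, 0.94 for Fn1 and Tnxb and 0.81 for Tnc and Tnxb, and 0.77, 0.89 and 0.66 with the genotype means removed. Thbs2, Thbs3 and Sparc also varied together, with r of 0.96 for Thbs3 and Sparc and 0.84 for each of the other pairs. These are not clean sets: with the genotype means removed, Tnxb had r of 0.71 with Thbs3 and 0.67 with Thbs2. With those means kept but without the 2 libraries farthest from the median of Tnxb, the values were 0.02 and 0.08. Tnc and Tnxb had 0.58 without the 2 libraries farthest from the median of Tnc. Thbs1 ran against Thbs2 at r of -0.81 (Spearman's rho -0.63), which was -0.57 without the 2 libraries farthest from the median of Thbs1. In the 5 skin libraries Fn1 and Tnc had r of -0.83, Tnc and Tnxb -0.67, and Fn1 and Tnxb 0.90. Thbs2 had -0.11 with Thbs3 and -0.16 with Sparc there, and Thbs3 and Sparc had 0.64. The libraries share their scaling and differ in depth and in genes at 0. Libraries 23, 4 and 7, which set Thbs1 against Thbs2, include 2 of the 4 with the most genes at 0, namely 4 and 7. Fibroblast markers (12 genes) summed to 30115, 31122 and 25447 CPM in 23, 4 and 7, against 42097 to 160039 CPM in the other lung libraries. Most of these sums is collagen: Col1a1, Col1a2 and Col3a1 averaged 24829, 14444 and 32761 CPM in wild-type lung. The next highest there, P4hb, Vim and Dcn, ran from 1337 to 2647, 1172 to 2014 and 1159 to 1756 CPM. The sums are therefore not a measure of fibroblast content. Lung epithelium markers (12 genes) summed to 131, 199 and 73.2 CPM in 23, 4 and 7, against 9.90 to 47.3 CPM. The part of these cell types was not tested.

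**Figure D4:**
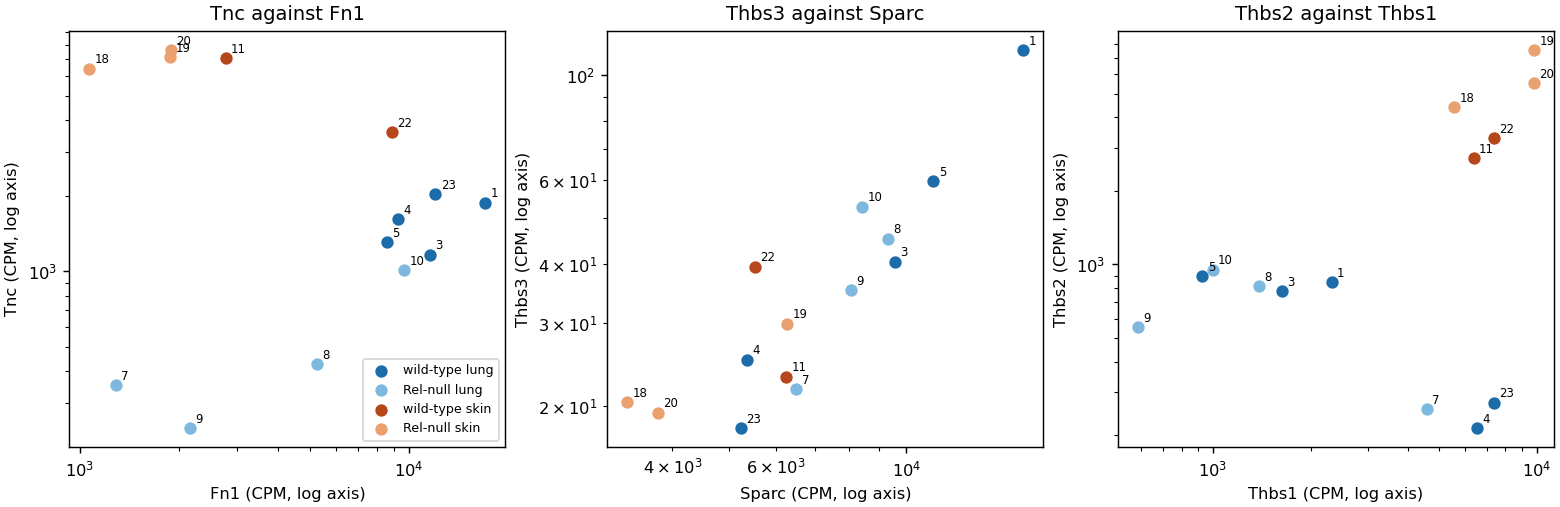
Levels of Tnc against Fn1, Thbs3 against Sparc and Thbs2 against Thbs1 in the 14 libraries, in CPM on log axes; points carry the library number and the colour of the group. In lung Tnc follows Fn1 and Thbs3 follows Sparc, while libraries 23, 4 and 7 combine high Thbs1 with low Thbs2.

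The genes most like 7 of the 8 over all 14 libraries, by Pearson's r of log2 CPM among 9410 genes of at least 10 CPM on average, are named here. Col5a2, a chain of collagen V, was nearest to Fn1 (r = 0.96), and Col1a1, the main chain of collagen I, was nearest to Thbs3 (0.96) and the second nearest to Sparc (0.93, after Slc1a5 at 0.94). Tnxb was nearest to Sparcl1, a relative of Sparc (0.96), and to Col3a1 (0.95). The nearest to Tnc were Sipa1l1 (0.96) and Cadm2 (0.95), to Thbs1 Trib2 and Csf1 (0.94 each), and to Postn Rftn2 (0.91) and Cdh11 (0.89). The second nearest was P3h3 for Fn1 (0.94) and Plod1 for Thbs3 (0.93), both of the collagen hydroxylase families. These r pool the tissues. Over the 9 lung libraries alone, Postn and Cdh11 had r of -0.03. Over the 5 skin libraries alone, Thbs1 and Csf1 had 0.16 and Tnc and Cadm2 had 0.27. The other pairs named had at least 0.74 in each tissue. The choice was unstable: of the 16 genes chosen for all 8, 5 were kept with Spearman's rho and 1 of 16 without the 4 libraries with the most genes at 0.

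Around the 8 genes stand their relatives, other glycoproteins, receptors and inducers, from lists made with earlier results of these data known. Of 12 close relatives tested, 1 was called lower in skin in each genotype and none higher, in both cases Sparcl1, a counter-adhesive relative of Sparc. Its mean in lung was 722 ± 259 CPM for wild type and 190 ± 201 for Rel-null, and in skin 3.83 ± 5.00 and 0.230 ± 0.175 (SD), with log2 fold changes of -7.88 ± 1.46 SE (adjusted p = 0.00569 by edgeR) and -9.83 ± 1.35 (adjusted p = 3.61e-04). The highest relatives per length were Fstl1, Sparcl1 and Tgfbi, at 321, 106 and 22.8 CPM per kb over all libraries. Of 14 other matricellular and adhesive glycoproteins tested, Mfap4, of elastic fibres, was called lower in wild-type skin (-7.12 ± 1.46, adjusted p = 0.0121) and Ccn5, of the CCN family, in Rel-null skin (-1.92 ± 0.41, adjusted p = 0.0111). Spp1, Fbln2 and Ccn1 were the highest of that list, at 2790, 455 and 347 CPM per kb.

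Of 14 receptors tested, Itgb3, the beta chain of an integrin that binds fibronectin, thrombospondin and periostin, was called higher in skin in both genotypes. Its mean in lung was 8.51 ± 3.68 CPM for wild type and 6.94 ± 5.35 for Rel-null, and in skin 77.8 ± 9.97 and 94.4 ± 10.5 (SD), with log2 fold changes of 3.19 ± 0.78 SE (adjusted p = 0.0360 by edgeR) and 3.76 ± 0.81 (adjusted p = 0.0111). Itgb6, an integrin chain of epithelia, was called higher in Rel-null skin (adjusted p = 0.00839), where it read 29.5 to 74.8 CPM beside the keratinocyte markers, and at most 7.36 CPM in any other library. Stab1, a scavenger receptor of macrophages and endothelium that takes up Sparc, was called lower in skin in both genotypes (-7.80 ± 1.35, adjusted p = 0.00356, and -5.25 ± 0.95, adjusted p = 0.00321). Cd36, a thrombospondin receptor also made by macrophages, was called lower in Rel-null skin (-4.06 ± 0.90, adjusted p = 0.0130). The leukocyte sums moved with both, and their part was not tested. The most abundant receptors, Itgb1, Sdc4 and Itgb5 at 318, 156 and 134 CPM per kb, were not called.

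Of 16 inducers and assembly genes tested, Tgm2, a transglutaminase that crosslinks fibronectin and is also made by macrophages, was called lower in skin in both genotypes. It averaged 815 ± 436 and 801 ± 236 CPM in wild-type and Rel-null lung, and 8.19 ± 0.192 and 12.1 ± 1.55 CPM in wild-type and Rel-null skin (SD). Its log2 fold changes were -6.64 ± 0.68 SE (adjusted p = 1.45e-04 by edgeR) and -6.04 ± 0.54 (adjusted p = 1.85e-05). Prrx1, a homeobox factor of mesenchyme, was called higher in Rel-null skin (1.36 ± 0.28, adjusted p = 0.00912). The TGF-beta receptor Tgfbr2 and the procollagen protease Bmp1, at 51.5 and 42.6 CPM per kb, were not called. No gene of the 4 lists was called between genotypes in lung or in skin, or for the difference between those effects.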

How the data were processed

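The authors deposited raw read counts per Ensembl gene for all 14 libraries, in columns numbered as the sample titles. Tools listed in the submitters' processing notes are STAR 2.4.2a, Trimmomatic 0.33 and FastQC 0.11.2, with the build GRCm38. Per the labels the library kit keeps strand. How reads were assigned to genes, with which strand setting and annotation, is not given in the sources used. Symbols, exon lengths and positions came from GENCODE M21, in which 48435 gene identifiers were found and 360 were not.

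The counts then went into edgeR 4.0.16 (R 4.3.3) with filterByExpr (minimum count 10, minimum total 15), TMM factors, and 1 quasi-likelihood model with a mean for each of 4 groups and a shared estimate of spread over the 14 libraries, since wild-type skin has 2 libraries. Of the genes, 16408 were tested, the common dispersion was 0.948, and p-values were adjusted by Benjamini-Hochberg with a threshold of 0.05. Whether the libraries of a group are of separate animals is not labelled; p-values therefore reflect library-to-library spread, which may be technical. No 2 libraries of a group agreed within sampling noise. The SE of a log2 fold change is its size divided by the square root of the F statistic of the quasi-likelihood test. Intervals are at the 95% level and use that SE with a t quantile. Log2 CPM for correlations had a prior count of 2.

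Text names all 8 genes, the genes of 4 context lists that were called in any comparison, the 3 highest per length of each list, and the 2 genes most like each of the 8, of which those for Thbs2 are not reported here. The genes and lists were chosen with earlier results of these data known. Alternatives were RLE and upper-quartile factors, other filters, DESeq2 1.42.0, limma-voom with quality weights (limma 3.58.1), each library left out in turn, fits of only the groups compared, and fits without the 4 libraries with the most genes at 0, the 2 Xist-positive libraries, or Rel-null skin 19 and 20. The fitting code was tested on simulated data with less spread than these data, which checks the code and not the power of the comparisons here.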

Additional observations from a re-analysis of the deposited data

How the results depend on the processing

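Of the 952 values of single genes under an alternative, 870 kept direction and side of the threshold, 44 changed sign, 25 passed the threshold newly and 13 no longer passed it; no value that was called changed sign. Tnc and Thbs2 between Rel-null skin and lung were called in all 24 alternatives. No paired analysis was possible because the library numbers are not shared between groups. Where a fit left 1 library in a skin group, that library is assumed to vary like the other groups. Depth is lowest in wild-type skin 22, on which Postn in wild type rests. The cause of the changes below was not tested, except that fits without libraries hold fewer samples.

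Genes called between lung genotypes, 0 at first, were 5 with no low-count filter, 51 by DESeq2, 6 by limma-voom, 2 with only the groups compared, 6 without the 4 libraries with the most genes at 0 and 2 without Rel-null skin 19 and 20. Between skin genotypes, also 0 at first, they were 3 with upper-quartile factors, 58 with no filter, 145 by DESeq2, 300 by limma-voom, 2 with only the groups compared, 87 without the 4 libraries, 439 without the Xist-positive libraries and 55 without Rel-null skin 19 and 20. Between wild-type tissues 487 became 782 with no filter, 1220 by DESeq2, 858 without the 4 libraries and 1044 without the Xist-positive ones. Between Rel-null tissues 829 became 1770 by DESeq2, 4501 by limma-voom, 2171 without the 4 libraries and 409 without Rel-null skin 19 and 20. For the difference of the genotype effects, 0 became 31 with no filter, 99 by DESeq2, 174 by limma-voom, 31 without the 4 libraries, 365 without the Xist-positive libraries and 31 without Rel-null skin 19 and 20. Leaving out each library in turn gave 0 to 2 genes called between lung genotypes, 0 to 421 between skin genotypes (421 without wild-type skin 22), 258 to 1050 between wild-type tissues, 410 to 1323 between Rel-null tissues and 0 to 370 for the difference of effects.

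Sign changes were of uncalled values. Leaving out libraries in turn, the lung genotype value ran from -0.15 to 0.36 for Thbs2, -0.59 to 0.12 for Thbs3, -0.50 to 0.05 for Postn and -0.35 to 0.06 for Sparc. The skin genotype value ran from -0.01 to 1.02 for Tnc, -1.72 to 0.03 for Tnxb, -0.72 to 0.01 for Thbs3 and -2.67 to 1.24 for Postn. The difference of effects ran from -1.07 to 0.57 for Fn1, -0.58 to 1.19 for Tnxb, -0.56 to 0.41 for Thbs3, -2.51 to 1.41 for Postn and -0.50 to 0.02 for Sparc. Without the Xist-positive libraries the lung value was 0.11 for Thbs3 and 0.05 for Sparc, the skin value 0.08 for Tnxb, 0.04 for Thbs3 and 1.28 for Postn, and the difference 0.43 for Fn1 and 1.39 for Postn. Without Rel-null skin 19 and 20 the skin value of Thbs1 was -0.32 and the difference of Tnxb -1.10. Without the 4 libraries the difference was -0.32 for Tnxb and 0.20 for Sparc. The difference was also -0.02 for Tnxb with RLE factors and -0.03 by DESeq2, 0.02 for Thbs3 with no filter, and 0.09 for Thbs3 and 0.10 for Postn by limma-voom.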
